A study of Homo sapiens with 2 samples.

Results

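This account is about 7 genes of the condensin and cohesin complexes and the binding of the transcription factor E2F1 at their start sites. The genes are SMC2, SMC4, NCAPH and NCAPG for condensin and SMC3, RAD21 and STAG1 for cohesin. They were given by name with their transcription start sites in the human genome build hg19, and a peak counted as theirs when it overlapped the 2 kb either side of the start. In all, 7 of the 28734 E2F1 peaks of the list met this rule. The peaks come from chromatin immunoprecipitation and sequencing (ChIP-seq) of LNCaP-abl, an androgen-independent subline of the prostate cancer line LNCaP. Cells at passages 61 to 64 grew in phenol-red-free medium with 10% charcoal-stripped serum, which is low in androgens, and spent 3 days without androgen before they were collected. Chromatin was precipitated with a pair of E2F1 antibodies from different suppliers. The series has 2 samples, this one and an input without antibody from the same line. The input's signal was not used. There is 1 E2F1 library, so no value below has a replicate and no difference could be set against replicate error. The read depth is unknown, because the list holds no read counts.

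Condensin and cohesin are ring-shaped ATPase complexes that fold DNA into loops. In each, a pair of SMC proteins is closed by a kleisin subunit, to which HEAT-repeat proteins bind. Condensin compacts chromosomes for mitosis, while cohesin holds sister chromatids together from S phase to anaphase and shapes interphase chromatin. E2F1 belongs to a family of factors that controls genes for S phase, and many E2F targets also serve mitosis.

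E2F1 peaks lay over the start sites of all 7 genes. The genes were chosen with earlier results of these data known, so this count does not stand for the complexes as a whole. Each window held exactly 1 peak, and each peak contained the start site itself. As a measure of how common peaks are, 3.93% of 749111 tiles of 4001 bp, the size of a window, held a peak on the nuclear chromosomes. Tiles are not promoters, and the share of all promoters with a peak was not analysed here, because no annotation of hg19 was used. The peaks were also strong within the list. By the authors' score, which was used only to rank peaks within this list, 7 of 7 were in the top 10% (10% of all peaks, scores of at least 109.7). The same 7 were in the top 5% (5% of all peaks, scores of at least 146.4). In the top 1% (1% of all peaks, scores of at least 229.001) were 2 of them, those of NCAPG and NCAPH. The median score of the 7 was 198, against 23.5 over all peaks.

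**Figure D1:**
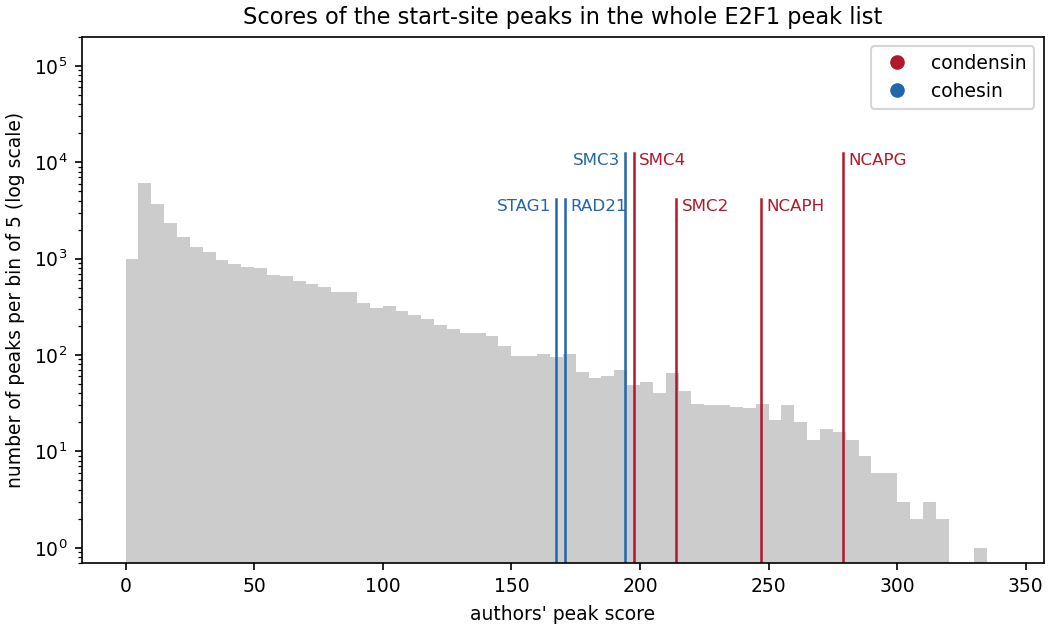
Histogram of the authors' peak scores over all 28734 E2F1 peaks in bins of 5, with the number of peaks on a log scale. Vertical lines mark the start-site peaks of the condensin genes (red, 198 to 279) and of the cohesin genes (blue, 168 to 194), and all 7 lie in the upper tail.

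The condensin genes had the higher scores. NCAPG, a HEAT-repeat subunit of condensin I, had the highest, 279, for a peak of 838 bp at chr4:17812167-17813004 (all peak positions are hg19). This was the 99.8th percentile of all peaks (exact 95% interval 99.8 to 99.9, for counting error only) and rank 46 of 28734. On chromosome 4 it ranked 3 of 1250. NCAPH, the kleisin of condensin I, followed with a score of 247 for a peak of 799 bp at chr2:97001259-97002057. It stood at the 99.4th percentile, with rank 181 in the list and rank 11 of 2020 on its chromosome. SMC2 and SMC4 form the ATPase core that condensin I and condensin II share. The SMC2 peak scored 214 over 808 bp at chr9:106856143-106856950, the 98.6th percentile, and ranked 10 of 1074 on its chromosome. The SMC4 peak scored 198 over 1245 bp at chr3:160116884-160118128, the 98.04th percentile, and ranked 25 of 1723. By score, NCAPG and NCAPH, which belong to condensin I, thus stood above SMC2 and SMC4. Peaks of the other condensin subunits were not analysed here.

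To show what letters lie before RefSeq starts of these genes, promoters of build GRCh38.p14 were read for the members, and 4 of them are printed. They are the pair with the strongest peaks (NCAPG and NCAPH) and the pair of other genes with an E2F word before the start (SMC4 and STAG1). Each is the 200 bases before the RefSeq start, 5′ to 3′ along the gene. Capitals mark E2F words of 7 or 8 letters, the cell-cycle element CHR and the CCAAT box, which are described further on. The positions are chr4:17810779-17810978 (plus strand) for NCAPG, chr2:96335566-96335765 (plus) for NCAPH, chr3:160399450-160399649 (plus) for SMC4 and chr3:136752379-136752578 (minus) for STAG1. Peaks and promoters are of different builds, so the letters were not placed under the peaks. The RefSeq starts were not matched to the listed starts either, so the letters need not lie before a listed start.
NCAPG: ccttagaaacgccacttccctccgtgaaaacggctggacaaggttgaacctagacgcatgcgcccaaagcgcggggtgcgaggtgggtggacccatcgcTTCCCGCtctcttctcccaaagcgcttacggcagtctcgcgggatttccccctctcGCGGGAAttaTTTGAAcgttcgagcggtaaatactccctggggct
NCAPH: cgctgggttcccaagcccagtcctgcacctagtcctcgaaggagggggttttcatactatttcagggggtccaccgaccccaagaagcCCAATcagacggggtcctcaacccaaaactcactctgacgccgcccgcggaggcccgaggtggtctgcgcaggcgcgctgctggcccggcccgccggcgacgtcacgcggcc
SMC4: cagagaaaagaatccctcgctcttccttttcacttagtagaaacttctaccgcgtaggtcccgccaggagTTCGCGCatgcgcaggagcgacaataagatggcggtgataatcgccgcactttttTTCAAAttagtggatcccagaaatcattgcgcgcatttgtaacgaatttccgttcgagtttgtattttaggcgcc
STAG1: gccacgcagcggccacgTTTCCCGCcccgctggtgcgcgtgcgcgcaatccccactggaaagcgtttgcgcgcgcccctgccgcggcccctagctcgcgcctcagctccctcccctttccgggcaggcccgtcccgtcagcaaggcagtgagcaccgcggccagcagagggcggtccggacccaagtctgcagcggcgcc

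The cohesin genes had lower scores and wide peaks. SMC3, part of the ATPase core of cohesin, scored 194 for a peak of 1534 bp at chr10:112326821-112328354. It stood at the 97.9th percentile and ranked 24 of 1273 on its chromosome. RAD21, the kleisin that separase cuts at anaphase, scored 171 for a peak of 1175 bp at chr8:117886211-117887385, the 96.8th percentile, with rank 33 of 1293 on its chromosome. STAG1, the HEAT-repeat subunit of one form of cohesin, scored 168 for a peak of 1694 bp at chr3:136470171-136471864. This was the lowest of the 7, at the 96.6th percentile (exact 95% interval 96.3 to 96.8) and rank 990 in the list. On chromosome 3 it ranked 52 of 1723, where the SMC4 peak was at rank 25.

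Scores of the complexes did not overlap, but by a narrow margin. The 4 condensin peaks scored 198 to 279 (median 231) and the 3 cohesin peaks 168 to 194 (median 171). The lowest condensin score (SMC4) and the highest cohesin score (SMC3) were 3.39 apart, while NCAPG and STAG1 were 112 apart. In order, the scores fell from NCAPG over NCAPH, SMC2, SMC4, SMC3 and RAD21 to STAG1. Without a replicate it cannot be said which neighbours in this order differ. The genes were chosen and not sampled, so no test of the complexes against each other was made.

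Widths ran nearly the other way. The peaks of SMC2, NCAPH and NCAPG were 799 to 838 bp wide, between the 83.6th and the 85.8th percentile of width in the list. Those of SMC4, RAD21, SMC3 and STAG1 were 1175 to 1694 bp wide, between the 97.3rd and the 99.9th percentile. STAG1 had the widest, at rank 38 of all peaks by width, and SMC3 was at rank 99. Score and width had a Spearman's rho of -0.79 across the 7 members. Over the whole list rho was 0.80, and over the 990 peaks that scored at least as high as STAG1 it was -0.06. These are descriptions across peaks of 1 library that share its depth, and score and width come from the same calls. Among those 990 peaks the median width was 789 bp, with quartiles of 685 and 933 bp. SMC2, NCAPH and NCAPG lay near that median, whereas 0.101% of the 990 were wider than STAG1, 0.707% wider than SMC3, 3.94% wider than SMC4 and 6.26% wider than RAD21.

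**Figure D2:**
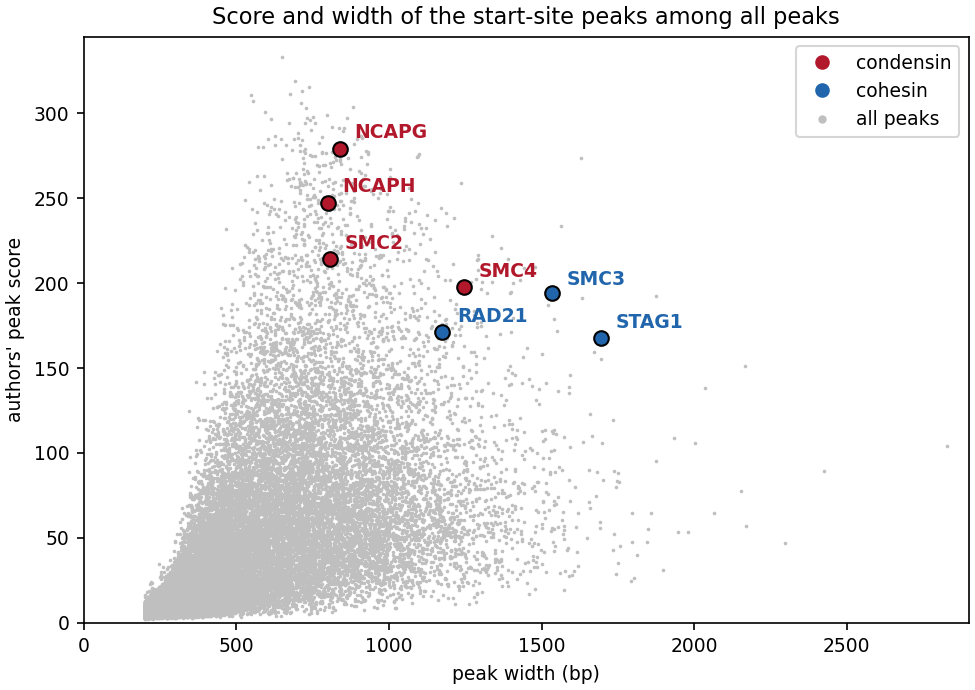
Authors' score against width in bp for each of the 28734 peaks (grey), with the start-site peaks of condensin genes in red and of cohesin genes in blue. NCAPG, NCAPH and SMC2 are high and 799 to 838 bp wide, while SMC4 and the 3 cohesin genes lie to the right, at 1175 to 1694 bp.

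Set against peaks of their own width, within 10% either way, the members remained high. NCAPG was at the 99.4th percentile of 2712 such peaks, NCAPH at the 97.1st of 2894, SMC4 at the 96.5th of 779 and SMC2 at the 94.4th of 2843. Of the cohesin genes, SMC3 was at the 95.7th of 211 peaks, STAG1 at the 93.5th of 92 and RAD21 at the 91.9th of 1074. The median score of these width classes lay between 71.5 and 76.3. By this measure the complexes overlapped, since SMC3 stood above SMC2.

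Each peak reached both sides of its listed start, and each centre lay on the transcribed side of it. How often peaks at starts in general are centred on that side was not analysed. SMC2 and SMC4 have another RefSeq start, so their distances hold for the listed start only. Along the gene, the centre was 5.5 bp past the start for SMC2, 60.5 bp for NCAPG, 138.5 bp for SMC3 and 140 bp for NCAPH. It was 227.5 bp past the start for STAG1, 307 bp for RAD21 and 419 bp for SMC4. The SMC2 peak was thus nearly centred on its start, with 398 bp before it and 409 bp after it. The SMC4 peak was the most uneven, with 203 bp before and 1041 bp after. STAG1 had 619 bp before and 1074 bp after, SMC3 had 628 and 905 bp, and RAD21 had 280 and 894 bp. NCAPH had 259 and 539 bp and NCAPG 358 and 479 bp. A centre is not a summit, which the list does not give, and RAD21 was taken to be read from the minus strand, as is generally known.

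**Figure D3:**
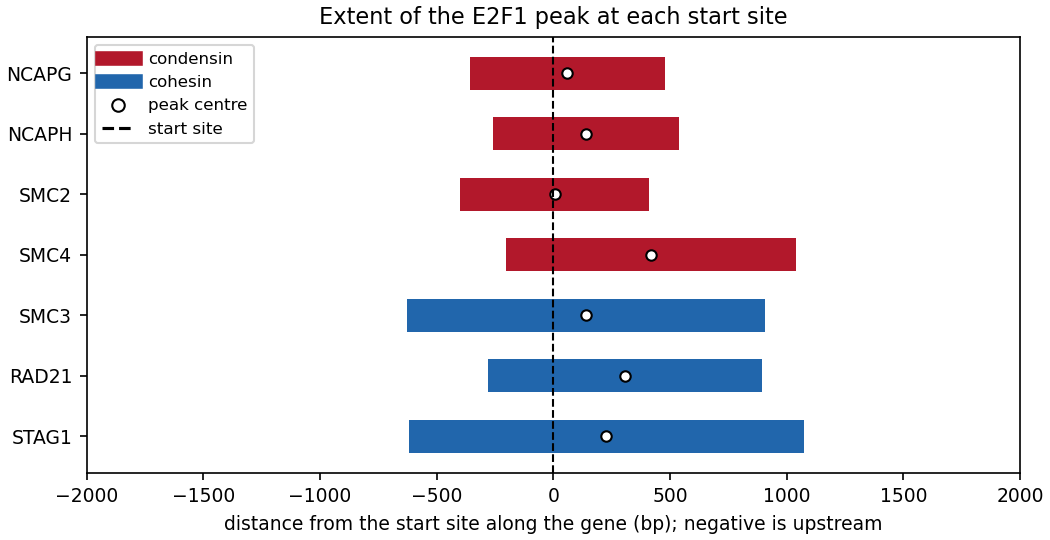
Extent of each start-site peak (bars) in bp along the gene, with the start at 0 (dashed line) and the peak centre as a white dot, for condensin (red) and cohesin (blue) genes. All 7 bars span the start, and the centres lie 5.5 to 419 bp downstream of it.

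Several of these starts face another gene. In the GRCh38.p14 promoter table, the start of DCAF16, a protein that serves ubiquitin ligases, lay 222 bp upstream of that of NCAPG on the other strand. IFT80, a protein of intraflagellar transport, started 425 bp upstream of the first SMC4 start and 1334 bp upstream of the second. The non-coding genes STAG1-DT, LOC105378483 and SMC2-DT started 293 bp upstream of STAG1, 387 bp upstream of SMC3 and 1835 bp upstream of the first SMC2 start. In the gene table of the same build, RAD21 overlapped RAD21-AS1 at its start. No start of an opposite gene lay within 2 kb of NCAPH in that table. The peaks of NCAPG, SMC3 and STAG1 reached 358, 628 and 619 bp upstream of the listed start, further than these distances. Those of SMC4 and SMC2 reached 203 and 398 bp upstream of the listed start, less than these distances. The distances were measured from RefSeq starts, which were not matched to the listed starts. They therefore do not show whether a peak reached the opposite start. Peaks and opposite starts are of different builds, so whether a peak covers both starts was not tested. A peak that spans such a pair of starts cannot be assigned to either gene from this list.

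The surroundings of the starts differed. Within 100 kb either side of the start, NCAPG, RAD21, STAG1 and SMC2 each had 1 other peak, SMC4 had 2, and NCAPH and SMC3 had 4 each. The other peak was weak for NCAPG (score 5.23), RAD21 (12.9) and STAG1 (20.3). For SMC2 it was strong. It scored 179, the 97.3rd percentile, and lay 20365 bp upstream by its centre, at chr9:106835870-106836482. For SMC4, a weak peak with a score of 12.8 at chr3:160119669-160119868 began 1541 bp after the end of the start-site peak. A second peak at chr3:160167209-160168117 scored 260, more than the start-site peak itself, and was centred 50576 bp downstream of the start. NCAPH had upstream peaks with scores of 140 and 129, and the highest of the others near SMC3 scored 88.9.

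In 6 of the 7 neighbourhoods of 100 kb the start-site peak was the highest, SMC4 being the exception. Of all peaks, 31.1% were the highest within 100 kb of their centre. Of the 990 peaks with a score at least that of STAG1, 90.2% were, so the members' count is near what peaks of their strength show in general. Within 500 kb the start-site peak was the highest for 5 of the 7, but the share of all peaks for that distance was not analysed. There, a peak with a score of 195 exceeded that of RAD21. The median distance from a member's peak to the nearest other peak was 30920 bp, against 16102 bp over 28725 nuclear peaks and 20226 bp over the 990 peaks.

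**Figure D4:**
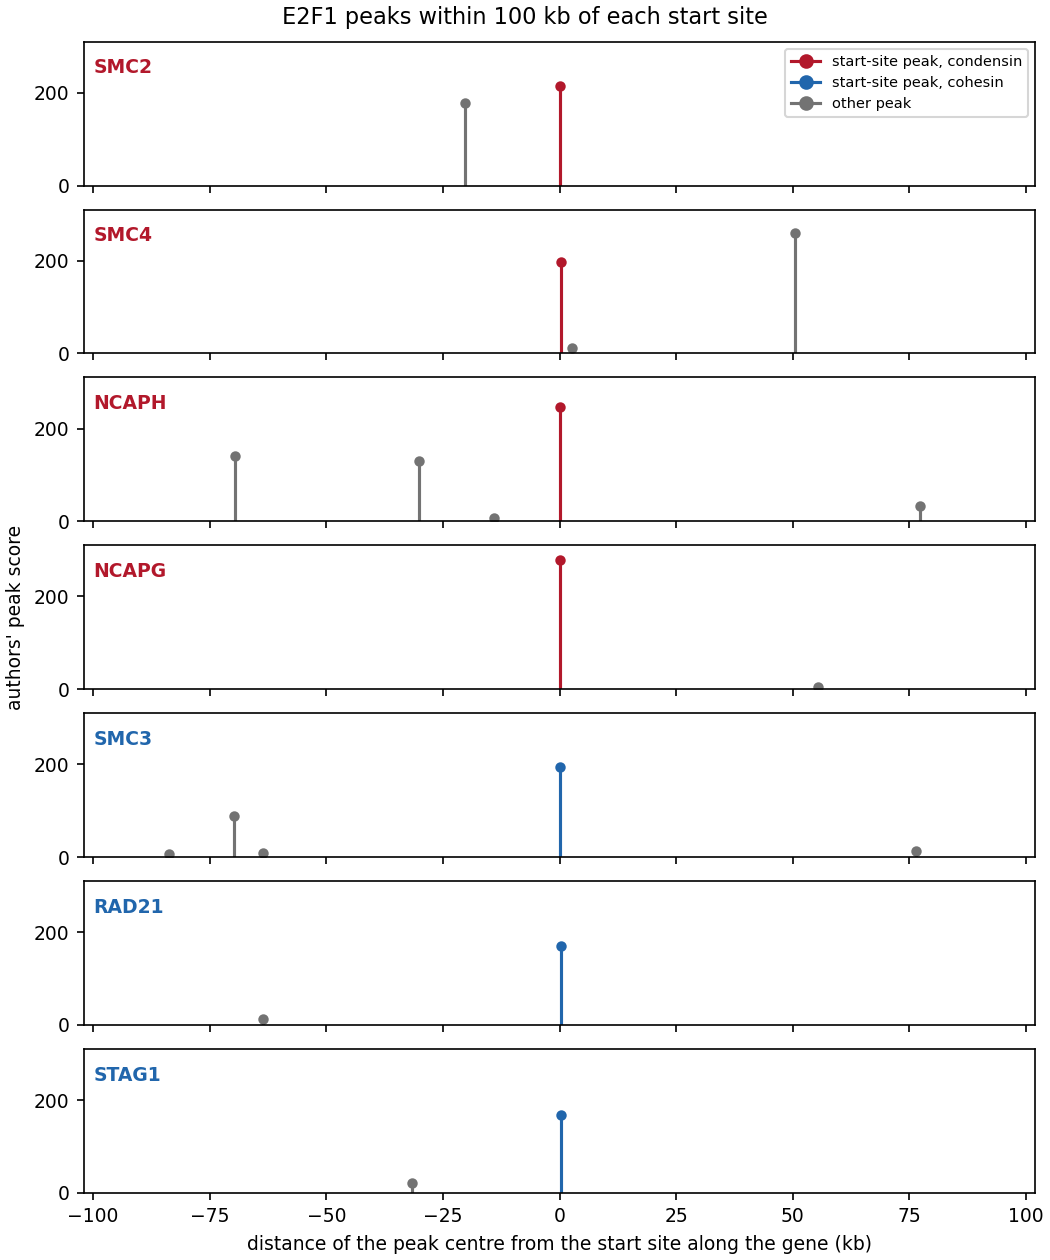
Peaks within 100 kb of each start, as the distance of the peak centre from the start along the gene in kb against the authors' score, with the start-site peak in red (condensin) or blue (cohesin) and other peaks in grey. SMC2 and SMC4 have another strong peak nearby (179 and 260), while the other peaks near NCAPG, RAD21 and STAG1 score 5.23 to 20.3.

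The promoters were searched on both strands for words known from cell-cycle genes. The table gives 300 bases for each start, 250 before and 50 after, and 6 of the 7 genes were matched, with 8 promoters, since SMC2 and SMC4 have 2 starts each. RAD21 was not matched. The E2F words were TTTGGCGC, TTTCCCGC, TTTGCCGC and TTTCGCGC. Of the 8 promoters, 1 held such a word, against 3.31% of the 35116 promoters of the table. This was TTTCCCGC in STAG1, from 183 to 176 bases before the start, and it overlaps an SP1 word there. The same words without their first T were held by 3 of 8 promoters, STAG1 included, against 13% of all. NCAPG held TTCCCGC at 101 to 95 bases before the start and again, on the other strand, at 45 to 39. SMC4 held TTCGCGC at 130 to 124. The NCAPH, SMC2 and SMC3 promoters held none of these letters, though the NCAPH peak had the second highest score of the 7. No match says only that these words are not in this window.

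The cell-cycle homology region (CHR) is an element of genes expressed in G2 and mitosis, bound by the MuvB complex. Its words TTTGAA and TTCGAA were found in 4 of the 8 promoters, against 16.4% of all. In NCAPG it stood 35 to 30 bases before the start, 3 bases after the second E2F word. In SMC4 it stood 75 to 70 bases before the start and in SMC3 151 to 146, both on the other strand. In SMC2 it spanned the start, from base -3 to base 3. CCAAT, the box bound by NF-Y, was in 2 of the 8, against 34.6%. They were NCAPH, at 112 to 108 bases before the start, and STAG1, which held it on the other strand before and at the start. GGGCGG, a word bound by SP1, was in 4 of the 8 (50%), with 3 matches in STAG1, against 45% of all promoters and 56.3% of those of protein-coding genes. Over protein-coding genes, the share was 4.10% for the 8-letter E2F words, 16.1% for the 7-letter ones, 13.7% for CHR and 34.7% for CCAAT. With 8 promoters these shares are descriptions, and a match is not a bound site.

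Base composition varied among the promoters. STAG1 had the richest, with 71.3% G and C and 37 CpG in 300 bases, the 90.1st percentile of CpG number among all promoters. NCAPH had 31 CpG, NCAPG 29 and SMC3 23. The first SMC4 promoter had the lowest share of G and C, 47.7%, with 22 CpG, and the first SMC2 promoter had the fewest CpG, 16. The median was 58.7% and 14 CpG over the whole table, and 62.3% and 21 CpG over the promoters of protein-coding genes. The 8 promoters all held more CpG than the first of these medians, but the SMC2 promoters, with 16 and 21, did not exceed the second. STAG1 had the most CpG of the matched genes and the lowest peak score of all members. Whether CpG number goes with peak score was not tested.

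**Figure D5:**
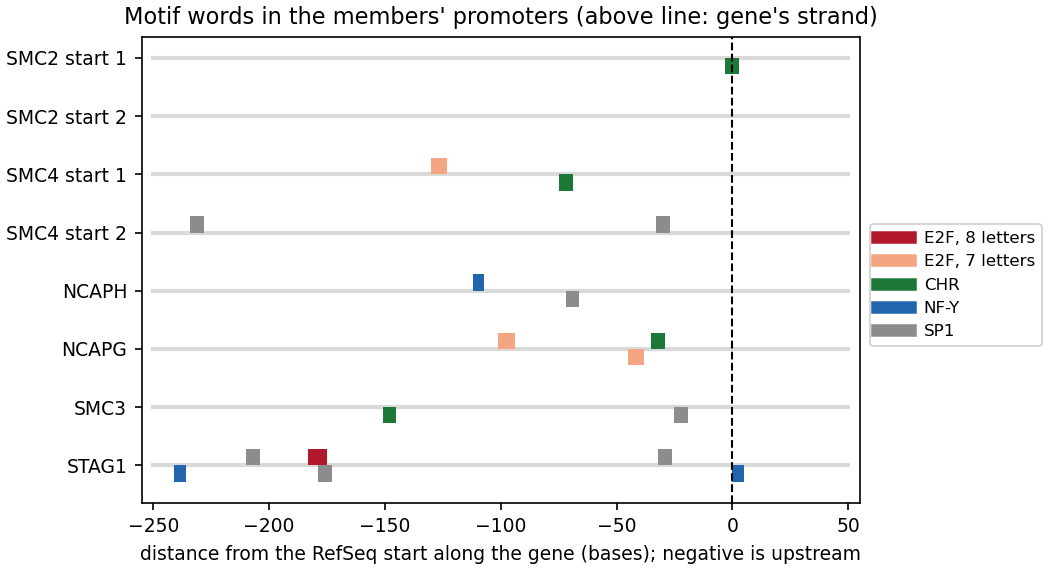
Positions of motif words in the 8 RefSeq promoters of 6 members, in bases from the start (dashed line at 0), with words on the gene's strand drawn above the line and on the other strand below it. The 8-letter E2F word is in STAG1 and the 7-letter ones are in SMC4 and NCAPG, where the second is next to a CHR word.

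Of 24 further genes of these complexes and their regulators, 21 were matched in the promoter table. NCAPH2, ESCO1 and ESCO2 were not matched. No start sites of hg19 were at hand for them, so their peaks were not analysed here. An 8-letter E2F word was in a promoter of 6 of the 21 genes, against 3.31% of all promoters. They are NCAPD3 of condensin II, SMC1A and STAG2 of cohesin, the cohesin loader NIPBL, CDCA5 (sororin, which protects cohesion) and SMC6. A 7-letter word was in 13 of the 21 genes (13% of all promoters), a CCAAT box in 11 (34.6%) and an SP1 word in 19 (45%). A CHR word was in 7 (16.4% of all promoters), among them all 3 matched condensin genes (NCAPD2, NCAPD3 and NCAPG2), separase (ESPL1) and shugoshin (SGO1), which guards centromeric cohesin. The other 2 were PDS5B and CDCA5. Of these, NCAPD3 and CDCA5 held both an 8-letter E2F word and a CHR word. Genes with several starts had more than 1 promoter searched, 27 in all, which raises these counts relative to the shares per promoter. Over promoters of protein-coding genes the shares were 4.10% (8-letter E2F), 16.1% (7-letter), 34.7% (CCAAT), 56.3% (SP1) and 13.7% (CHR).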

How the data were processed

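The data are the peak list of 1 E2F1 ChIP-seq library. The submitters' processing notes name the build hg19 and the tools MACS2 2.0.9, Bowtie and CASAVA 1.6.0. The settings, the control and the threshold of the peaks were not given in the sources used here. For each peak, the score deposited by the authors in column 5 has no stated scale and served only to rank peaks. Scores of this kind generally depend on the local background as well as on the signal.

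Start sites were those of the rule for these genes. Overlap meant at least 1 bp. A percentile is the share of peaks with a score at or below the peak's own, with an exact Clopper-Pearson 95% interval. BED starts were converted to 1-based. All 7 genes are named. Members and lists were chosen with earlier results of these data known, so no test was made on them. The overlap and tile counts were tested on simulated data. Promoters are RefSeq's (GRCh38.p14), and no coordinates were converted between builds. Python 3.11.15, pandas 2.3.3, numpy 2.4.6, scipy 1.17.1 and matplotlib 3.10.9 were used. Alternatives were other windows, score thresholds, reference sets, neighbourhoods and motif words.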

Additional observations from a re-analysis of the deposited data

How the results depend on the processing

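The 7 start-site peaks were found with windows of 500 bp, 1, 5 and 10 kb, with the start inside the peak, and in the top 50% and top 10% of peaks, and 7 of 7 were in the top 5% and top 25% of the list and the top 10% of their chromosome. Of the alternatives to summary values, 16 left a count within 1.5 times its value, or a share or percentile within its exact 95% interval, and 7 moved it further, if only slightly for some. The members' median percentile of 98.04 became 98.6 among peaks of the same chromosome and 95.7 among peaks of similar width. The median distance of 140 bp from start to peak centre became 0 bp when measured to the nearest edge, by construction. The share of tiles with a peak, 3.93%, was 10.5% on chromosome 19 alone and 2.09% on chromosome 13 alone. The number of member genes with an E2F word, 1, became 3 with the 7-letter words, which the longer words contain. The share of promoters with an 8-letter word, 3.31%, was 4.10% over protein-coding genes, an alternative chosen after seeing the data. No paired analysis was possible because the peaks come from a lone library, and no replicate could be left out. What depth limits is unknown, since the list gives no read counts.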
